A study of Mus musculus with 6 samples.

Results

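The regions of the mouse genome listed for genes of the Wnt pathway were examined for differences in DNA methylation between liver tumors and normal livers. In the deposited table each region was listed for the gene with the nearest TSS (transcription start site) in the list used. Pathway genes were Wnt ligands, Frizzled, Lrp5/6 and Ror receptors, secreted antagonists, R-spondins and their receptors, cytoplasmic transducers, the ligand carrier Wls and Tcf/Lef factors. Members were all regions listed for these genes by symbol, whatever the size of the difference, also where they lay in another gene. This gave 66 of the 14176 tabulated regions, listed for 34 genes. The assay was RRBS (reduced representation bisulfite sequencing), in which DNA is cut at CCGG by MspI and bisulfite makes unmethylated cytosine read as T. The samples were 3 liver tumors with a Ha-ras mutation and 3 normal livers. All tissues came from male C3H/HeN mice, an inbred strain prone to liver tumors, at 74 weeks of age, from the control arm of a project on gestational arsenic exposure and without treatment. Tumors were taken as macroscopic tissue, with no sorting of cell types stated.

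Wnt ligands bind Frizzled receptors together with the co-receptors Lrp5 or Lrp6. The signal passes through Dishevelled proteins, stops the Axin and Apc complex from destroying beta-catenin, and lets beta-catenin act with Tcf/Lef factors at target genes. Dkk, Sfrp and Wif1 proteins are secreted antagonists, while R-spondins strengthen the signal. In the liver this pathway sets the identity of hepatocytes around the central vein.

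Each region carried a single value, the mean difference in percent methylation over its CpG cytosines, tumor minus normal, in percentage points. Neither the methylation level of each tissue nor a value per animal was given, so no spread between animals and no test across them could be had, and all comparisons below are descriptions. The read depth behind each value is unknown beyond the minimum coverage of the study. A change within cells and a change in the mix of cell types cannot be told apart in whole tissue. Differentially methylated cytosines (DMCs) were those called by the authors, and DMRs were regions that differed by 30 points or more in either direction and held 3 or more CpG cytosines, with 1 or more of them a DMC. Losses in tumors are called hypo-DMRs and gains hyper-DMRs.

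The Wnt pathway regions held both gains and losses of methylation, given here by the role of the gene beside the 76.3% of losses among all DMRs of the table. The 4 DMRs of Wnt ligand genes (2 at Wnt4, and 1 each at Wnt7a and Wnt3a) were losses, a count near that share. Of 5 DMRs at receptor and co-receptor genes, 4 were gains (2 at Fzd7, and 1 each at Lrp5 and Ror1), and the remaining DMR was a loss at Fzd9. Of 4 DMRs at secreted antagonist genes, 3 were gains (Dkk4, Dkk3 and Wif1), with a loss at Dkk2. Tcf7l2, which encodes the main Tcf factor of the liver, had 2 hyper-DMRs, and Rspo3, an R-spondin made by the endothelium of the central vein, had 1 hypo-DMR. Below 30 points, 7 of 12 ligand regions were losses and 5 gains. Losses were also 7 of 9 receptor and co-receptor regions and all 8 antagonist regions, unlike most DMRs of these 2 roles. In the whole table, 9512 of 10839 regions below 30 points were losses, so the antagonist count there is near the general share. Over all regions, 11 of 16 ligand regions and 9 of 12 antagonist regions were losses, beside 85.1% of all tabulated regions. These counts are small, rest on the gene listed for each region, and the difference between the roles was not tested. The Dkk3 gain lay in another gene. Hypo-DMRs inside Lrp6, Ror1, Kremen1 and Wnt7b (-34.8, -33.1, -32.6 and -31.5 points) were listed for other genes and are not counted here. The same holds for a hyper-DMR of 44.6 points inside Tcf7l1.

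**Figure D1:**
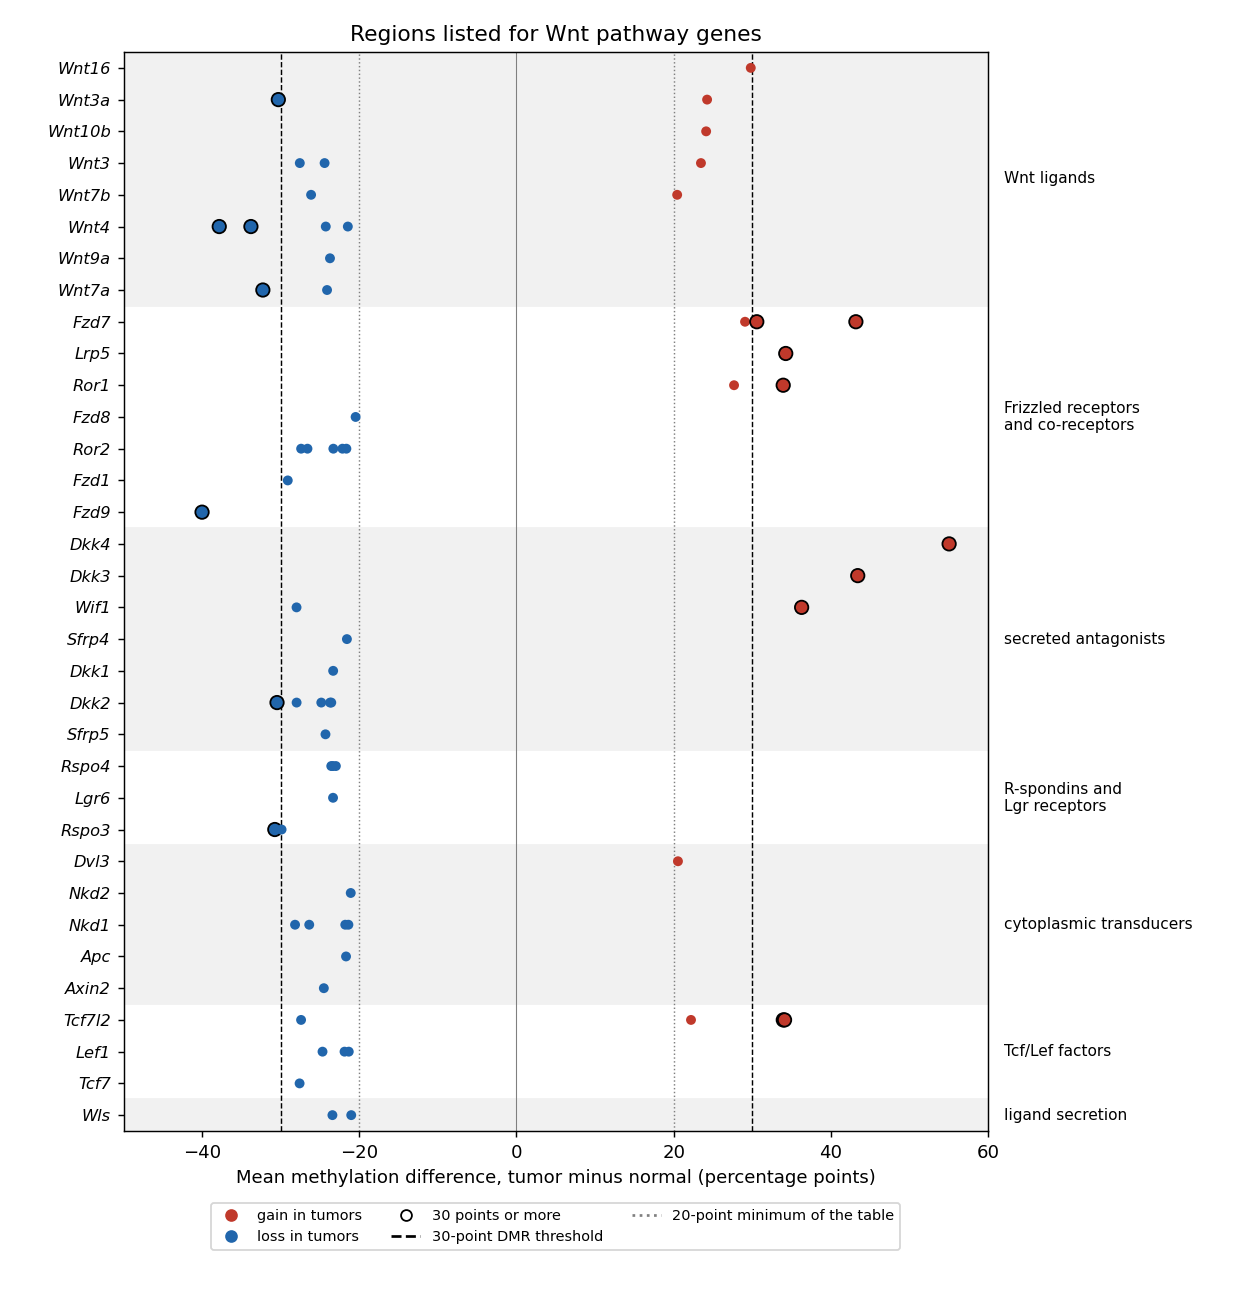
Mean methylation difference, tumor minus normal in percentage points, of each of the 66 regions (points), by the gene listed for it and the role of the gene. Outlined points are the 16 DMRs, dashed lines mark 30 points, and dotted lines the 20-point minimum of the table; DMRs of Wnt ligands lie on the left, and most of those of receptors and antagonists on the right.

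The sequences of 9 regions are given to show the CpG sites on which the leading values rest. They were chosen from the larger gains and losses of antagonist, co-receptor and ligand genes, together with the opposed regions of Tcf7l2 and Wnt3a. All are from the reference assembly GRCm38, which is of strain C57BL/6J and not C3H, on the plus strand, 5′ to 3′. Capitals mark the bases of CpG dinucleotides, and a single capital at an end belongs to a CpG cut by the end of the region. For Dkk4 only the part beyond the annotated end of the gene is shown.
Dkk4 3′ flank (gain), chr8:22628019-22628091: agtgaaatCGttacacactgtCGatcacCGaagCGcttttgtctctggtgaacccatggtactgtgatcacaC
Dkk3 upstream (gain), chr7:112187251-112187402: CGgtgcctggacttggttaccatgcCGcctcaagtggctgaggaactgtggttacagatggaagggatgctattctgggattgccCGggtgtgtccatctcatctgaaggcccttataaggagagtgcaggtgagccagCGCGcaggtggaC
Lrp5 exon and intron (gain), chr19:3659610-3659714: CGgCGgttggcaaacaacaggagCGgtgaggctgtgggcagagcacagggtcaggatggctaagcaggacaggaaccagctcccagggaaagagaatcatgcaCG
Tcf7l2 intron (gain), chr19:55845482-55845513: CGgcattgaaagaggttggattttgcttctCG
Tcf7l2 intron (loss), chr19:55851557-55851748: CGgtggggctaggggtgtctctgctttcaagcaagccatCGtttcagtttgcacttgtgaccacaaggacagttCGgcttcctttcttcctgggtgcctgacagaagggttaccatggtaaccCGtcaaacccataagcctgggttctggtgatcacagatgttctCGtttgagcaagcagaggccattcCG
Wnt3a intron (gain), chr11:59284293-59284357: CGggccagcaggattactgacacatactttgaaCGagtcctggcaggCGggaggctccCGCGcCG
Wnt3a exon and intron (loss), chr11:59274994-59275275: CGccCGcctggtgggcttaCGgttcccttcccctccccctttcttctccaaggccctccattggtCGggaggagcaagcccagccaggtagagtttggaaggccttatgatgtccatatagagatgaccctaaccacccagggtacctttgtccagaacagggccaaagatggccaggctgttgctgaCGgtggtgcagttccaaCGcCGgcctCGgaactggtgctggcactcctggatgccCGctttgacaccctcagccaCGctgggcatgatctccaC
Wnt4 upstream (loss), chr4:137272974-137273096: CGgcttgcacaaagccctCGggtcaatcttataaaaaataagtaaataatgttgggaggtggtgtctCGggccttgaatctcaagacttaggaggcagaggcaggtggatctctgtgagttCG
Wnt4 intron (loss), chr4:137291738-137291858: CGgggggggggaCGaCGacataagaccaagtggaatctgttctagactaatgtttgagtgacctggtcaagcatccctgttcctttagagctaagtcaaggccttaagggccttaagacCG

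In these sequences, cytosines of both strands were counted apart by the authors, so that a region could have more measured cytosines than dinucleotides. The Lrp5 region had 7 measured cytosines in 4 dinucleotides, and the Tcf7l2 gain had 3 in 2. The Wnt3a loss, in contrast, had 7 measured cytosines although its sequence held 11 dinucleotides, so some of its sites were not measured or not kept.

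Over all 66 regions, 48 had lost methylation in tumors (72.7%, beside 85.1% of all tabulated regions) and 18 had gained it (27.3%, beside 14.9%). The median difference was -23.3 points, beside -23.9 points over all regions. DMRs made up 16 of the 66 regions (24.2%), beside 23.5% of all regions, so that regions of Wnt pathway genes passed 30 points about as often as the rest. Their direction is given beside that of all DMRs as a description, and the difference was not tested. Of the 16, 7 were hypo-DMRs (43.8%, beside 76.3% of all DMRs) and 9 were hyper-DMRs (56.2%, beside 23.7%). The exact Clopper-Pearson 95% interval of the 43.8% was 19.8 to 70.1%, counting error of regions only. It takes regions as independent, but the 16 DMRs were listed for 13 genes, so it is no test against the share of all DMRs. As a share of tabulated regions, losses of at least 30 points made up 18.0% and gains of that size 5.57% of the whole table.

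The share of gains stood furthest above that of the whole table among regions of 30 points or more. From 20 to 25 points, 6 of 35 regions of Wnt pathway genes were gains (17.1%), beside 11.6% of all regions. From 25 to 30 points there were 3 gains among 15 (20%), beside 13.3%. From 30 to 40 points 6 of 12 were gains (50%), beside 17.9%, and at 40 points or more 3 of 4, beside 44.6%. With a minimum of 25 points, 19 losses stood against 12 gains, so that losses were the majority (61.3%, beside 82.0% of all regions of that size). They were also the majority, at 11 against 9 DMRs, when regions were assigned to the gene they lay in, and at 5 against 2 among the DMRs whose listed gene had the nearest annotated start. The values next to the threshold were -30.3 points at Wnt3a, -30.5 at Dkk2 and 30.6 at Fzd7 just inside it, and -29.9 points at Rspo3, 29.8 at Wnt16 and -29.1 at Fzd1 just outside.

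**Figure D2:**
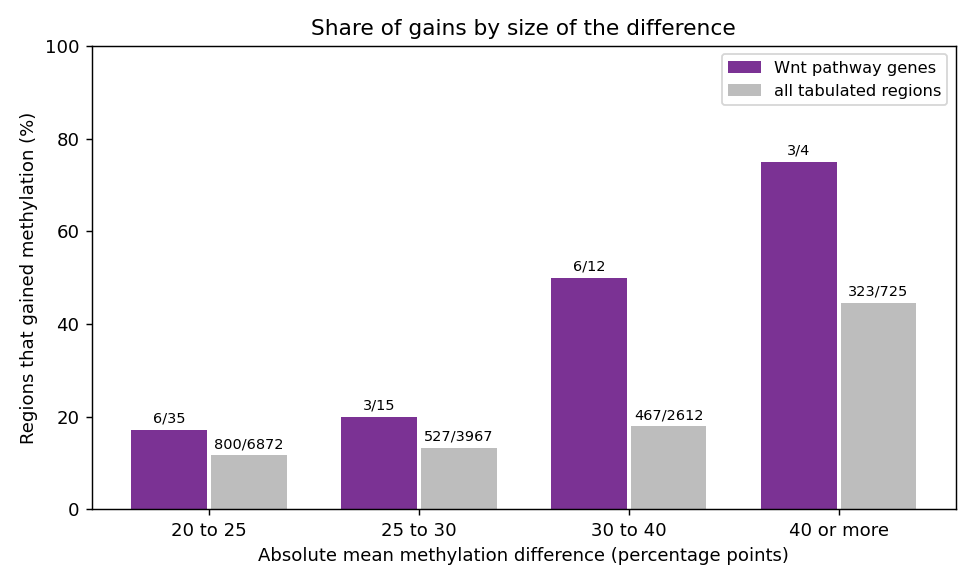
Share of regions that gained methylation in tumors (%), by absolute mean difference in percentage points, for regions of Wnt pathway genes (purple) and all tabulated regions (grey); numbers above the bars are gains over regions. At 30 to 40 points the purple bar stands at 50% and the grey bar at 17.9%, and the last purple bar rests on 4 regions.

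Among Wnt ligand genes, Wnt4 carried the largest loss and the most regions. Wnt4 encodes a ligand that acts in the developing kidney and gonad. Its 4 regions lay within 27.6 kb and were all losses, at -37.8 points in an intron 14.1 kb downstream of the TSS, and at -33.8, -21.5 and -24.3 points upstream of it, at distances of 4.54, 11.6 and 13.3 kb. In the intronic region, 4 of 4 cytosines were DMCs, and in the nearest upstream region 4 of 5. From the nearest to the furthest upstream region, 55.3%, 64.7% and 36.5% of the sequence was repeat-masked, and 16.5% in the intronic region.

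Wnt7a, a ligand that acts in limb and brain development, had a hypo-DMR of -32.3 points in intergenic sequence 20.1 kb beyond the end of the gene, with 2 of 4 cytosines DMCs. A second region, in an intron of Wnt7a, stood at -24.1 points with 1 of 3 cytosines a DMC. Wnt3a, a ligand that stabilizes beta-catenin, had regions of opposed direction 9017 bp apart. The hypo-DMR, at -30.3 points with 4 of 7 cytosines DMCs, covered 136 bp of a coding exon and the intron beside it. The other region lay in an intron closer to the TSS, at 24.3 points with 3 of 6 cytosines DMCs.

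Wnt3, a close relative of Wnt3a, showed the same kind of split. A gain of 23.5 points (3 of 8 cytosines DMCs) lay 2.99 kb upstream of the TSS, inside an intron of the neighboring Wnt9b. Losses of -24.4 and -27.6 points lay in an intron of Wnt3, 6.14 and 7.29 kb downstream. The second of these losses rested on 1 DMC of 3 cytosines. Wnt7b had a loss of -26.1 points in an intron and a gain of 20.4 points 29993 bp upstream, in which 2 of 15 cytosines were DMCs.

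The other ligand genes had a region each. A gain of 29.8 points listed for Wnt16 lay in an intron of Cped1, 81.8 kb from the TSS, with 7 of 9 cytosines DMCs. At Wnt10b a region with a gain of 24.1 points (11 of 22 cytosines DMCs) lay 2.33 kb upstream of the TSS between genes. An intronic region of Wnt9a stood at -23.7 points with 1 of 4 cytosines a DMC. Over the 16 ligand regions, 11 were losses and 5 gains, and none of the gains reached 30 points.

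Among receptor genes, Fzd7 gained methylation in all of its regions. Fzd7 encodes a Frizzled receptor that is often raised in human hepatocellular carcinoma. A region 58.5 kb upstream of the TSS stood at 43.2 points with 13 of 15 cytosines DMCs, and a further region 100.3 kb upstream at 29.1 points with 4 of 6. The third region began 2.13 kb downstream of the TSS in the single exon of the gene. It was the longest of the 66 regions, at 1059 bp, of which 400 bp were coding and the rest untranslated, and it held 51 measured cytosines, of which 32 were DMCs, at 30.6 points.

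Lrp5, the co-receptor that binds Wnt together with Frizzled, had a hyper-DMR of 34.3 points with 5 of 7 cytosines DMCs. It covered 31 bp of a coding exon and the adjoining intron, 26.9 kb from the TSS. Ror1, a receptor tyrosine kinase-like protein that binds Wnt5a, had listed gains in its body of 33.9 points (2 of 3 cytosines DMCs) and 27.7 points (5 of 8), the smaller also within an exon of the nested non-coding gene Gm12701. The larger rested on 2 dinucleotides within 27 bp. A further region inside Ror1, listed for Ube2u and so not among the 66, was a loss of -33.1 points with 6 of 6 cytosines DMCs, so that the body of Ror1 carried both directions.

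Ror2, the paralog of Ror1, had 5 listed regions, all losses from -27.4 to -21.6 points, and none reached 30 points. Of these, 4 lay in the body of Ror2, among them a region at -23.3 points that covered 53 bp of a coding exon, and 1 lay 5.07 kb upstream of the TSS.

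Fzd9 carried the largest loss among the 66 regions. This hypo-DMR, 17.7 kb upstream of the TSS in intergenic sequence, stood at -40.01 points with 6 of 7 cytosines DMCs, and 62.9% of it was repeat-masked. Fzd1 and Fzd8 had a loss each, at -29.1 and -20.5 points, 263 and 627 kb from the TSS. At such distances the listing for a gene says only that no other TSS of the list used was nearer.

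Among antagonist genes, Dkk4 had the largest gain of all 66 regions. Dkk4 encodes a secreted inhibitor that binds Lrp5 and Lrp6. The region at chr8:22627991-22628091 stood at 55.1 points with 7 of 7 cytosines DMCs, and ranked 43rd by size among the 2117 gains of the whole table. It lay at the 3′ end of the gene, with 28 of its 101 bp in the last annotated exon and the rest beyond it. The largest gain of the whole table, 77.0 points with 3 of 3 cytosines DMCs, lay 8203 bp further along and was listed for the non-coding gene A930013F10Rik. No other region outside the Wnt genes lay within 10 kb of any of the 66.

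Dkk3, a divergent member of the Dickkopf family, followed at 43.4 points with 4 of 7 cytosines DMCs. This region lay 28.2 kb upstream of the listed TSS, in an exon of the predicted non-coding gene Gm39071, whose start was 501 bp away. Wif1, which binds Wnt ligands outside the cell, had a hyper-DMR of 36.3 points with 17 of 18 cytosines DMCs in intergenic sequence 20.8 kb beyond the end of the gene. A second region of Wif1, 39641 bp further on, was a loss of -28.0 points that rested on 2 dinucleotides.

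The other Dickkopf and Sfrp genes had losses only. Dkk2 had 5 regions spread over 380 kb on either side of the gene, none within it, from -30.5 to -23.6 points. Its hypo-DMR, with 2 of 4 cytosines DMCs, lay 211 kb downstream of the TSS and was wholly repeat-masked. Single losses stood at -23.3 points for Dkk1, in an intron of Prkg1, at -21.6 points for Sfrp4, in an intron of Nme8, and at -24.3 points for Sfrp5, in a region of 8 bp.

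The 6 regions of R-spondin and Lgr genes were losses, a count near the 85.1% of losses among all regions. At Rspo3 an intronic hypo-DMR stood at -30.7 points with 3 of 4 cytosines DMCs, and a wholly repeat-masked region 195 kb upstream at -29.9 points with 4 of 7. Rspo4 had 3 regions between -23.6 and -23.0 points, of which 2 rested on 1 DMC. The region of Lgr6, a receptor for R-spondins, stood at -23.3 points in an intron with 1 of 3 cytosines a DMC. Wls, which carries Wnt ligands to the cell surface, had losses of -23.4 and -21.0 points, 77.3 and 85.2 kb upstream and wholly repeat-masked.

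Among the cytoplasmic transducers, no region reached 30 points. Nkd1, a Dishevelled-binding inhibitor that is itself induced by Wnt signalling, had 4 losses. They stood at -28.2, -21.8 and -21.4 points upstream of the gene and at -26.4 points in an intron. The intronic region was 1.79 kb downstream of the start of another transcript, and so within 2 kb of a listed TSS, but 8.08 kb from the start of the gene. Axin2, the scaffold protein of the destruction complex that is also induced by the pathway, had a loss of -24.5 points wholly within a coding exon, with 2 of 5 cytosines DMCs. Single losses stood at -21.7 points for Apc, 68.0 kb upstream, and at -21.1 points for Nkd2, in an intron. The only gain was at Dvl3, a Dishevelled gene, at 20.5 points in an intron 1.45 kb downstream of the TSS, with 1 of 3 cytosines a DMC.

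Among the Tcf/Lef factors, Tcf7l2 had 4 regions within its body and carried both directions. Gains stood at 34.1 points (6 of 8 cytosines DMCs), 22.2 points (3 of 8) and 34.0 points (2 of 3), at 3.70, 65.4 and 104 kb from the start of the gene. The fourth region, 6043 bp beyond the last of these gains, was a loss of -27.4 points with 7 of 10 cytosines DMCs. Lef1 had 3 losses, from -24.7 to -21.3 points, and Tcf7 a loss of -27.6 points that covered 55 bp of a coding exon. All regions of the group below 30 points except the middle one of Tcf7l2 were losses.

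**Figure D3:**
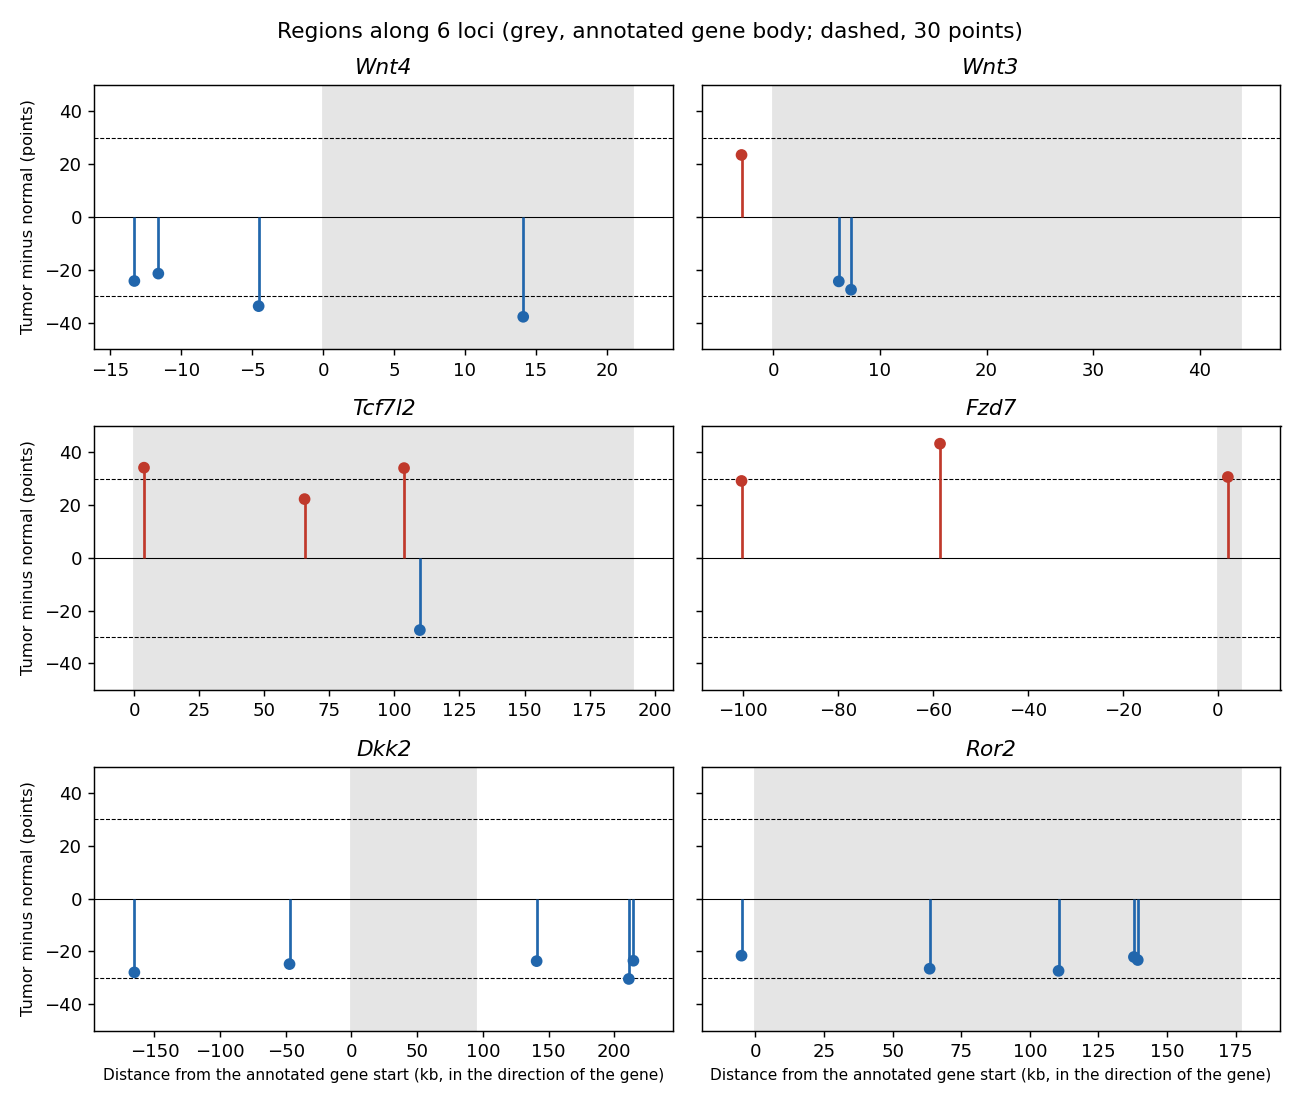
Mean methylation difference, tumor minus normal in percentage points, of the regions of 6 loci against distance from the annotated gene start in kb, in the direction of the gene; grey marks the gene body and dashed lines 30 points. Wnt4, Dkk2 and Ror2 show losses alone and Fzd7 gains alone, whereas Wnt3 and Tcf7l2 show both.

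Regions of the same gene mostly shared a direction. Of the 16 genes with more than 1 listed region, 9 had losses alone, 2 (Fzd7 and Ror1) had gains alone and 5 had both (Wnt3, Wnt3a, Wnt7b, Wif1 and Tcf7l2). Of 32 pairs of adjacent regions of the same gene, 27 had the same direction. Since most regions of the table were losses, many such pairs share a direction on that account, and the count was not tested.

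Nearly all regions lay away from promoters. Of the 66 regions, 2 (Dvl3 and Nkd1) lay within 2 kb of a listed TSS (3.03%, beside 6.18% of all regions). None of the 16 DMRs fell in this promoter window used by the study, beside 225 of all 3337 DMRs (6.74%). With 16 DMRs, a count of none is near that share. From 2 to 20 kb there were 23 regions with 6 gains (26.1%, beside 24.4% of all regions at that distance). From 20 to 100 kb there were 28 regions with 10 gains (35.7%, beside 15.2%), and beyond 100 kb 13 regions with 1 gain (7.69%, beside 3.61%). Regions beyond 100 kb made up 19.7% of the set, beside 32.8% of the whole table.

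**Figure D4:**
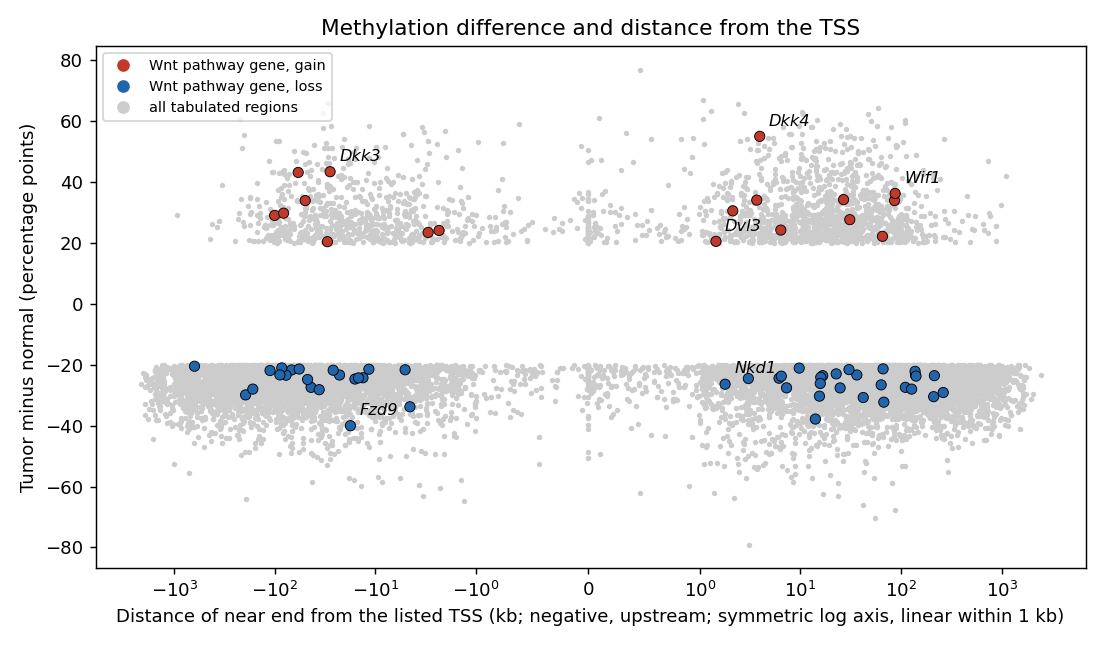
Mean methylation difference, tumor minus normal in percentage points, against distance from the listed TSS in kb (symmetric log axis, negative upstream), for the 66 regions of Wnt pathway genes (red, gains; blue, losses) and all tabulated regions (grey). Apart from the regions of Dvl3 and Nkd1, all colored points lie more than 2 kb from the TSS.

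The listed gene was often not the gene a region lay in. Of the 66 regions, 31 lay within the listed gene, 9 in another gene and 26 between genes by the RefSeq annotation (39.4% between genes, beside 46.3% of all regions). For 42 of them some other annotated gene, predicted and non-coding genes included, had a nearer start. Of the 9 hyper-DMRs, 6 lay in or overlapped the listed gene, 1 lay in another gene and 2 between genes (22.2%, beside 19.4% of all hyper-DMRs). Of the 7 hypo-DMRs, 3 lay in the listed gene and 4 between genes (57.1%, beside 50.4% of all hypo-DMRs). Both shares between genes were thus near those of the whole table.

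Gains and losses also differed in the number of measured cytosines and in repeats. The median number of measured CpG cytosines was 8 in the gains and 4 in the losses of Wnt pathway genes, beside 7 and 5 over all regions. None of the 18 gains was more than 50% repeat-masked, but 10 of the 48 losses were (20.8%), beside 5.38% of gains and 31.1% of losses in the whole table. Without such regions there were 4 hypo-DMRs and 9 hyper-DMRs. With flanks of 500 bp included, the median GC content was 49.3%, beside 47.3% over all regions, and the observed to expected CpG ratio was 0.254, beside 0.248. A 200-bp stretch that reached 50% GC and a ratio of 0.6 lay in or beside 13 regions (19.7%, beside 22.0%), and the only DMR among them was that in the Fzd7 exon. Over all 66 regions, 250 of 448 measured cytosines were DMCs (55.8%, beside 53.5%), and 11 regions rested on 3 cytosines and 1 DMC.

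The core letters bound by Tcf/Lef factors, CTTTGA, were searched on both strands in the 500 bp around the center of each region. They were found in 21 of the 66 windows (31.8%), beside 26.0% of the windows of all regions. Among the gains 6 of 18 windows held them, and among the losses 15 of 48. A match describes the letters and no binding.

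Further genes of the pathway, outside the rule for members, had losses about as often as the whole table. Of 103 such genes, 28 were listed for at least 1 region, a count near the 24.4% of all protein-coding genes. Their 46 regions were 38 losses and 8 gains, beside 85.1% losses among all regions. Among these regions there were 9 hypo-DMRs and 4 hyper-DMRs, beside 76.3% losses among all DMRs. The gains were 2 in the formin gene Daam1 (39.3 and 33.6 points), which links Dishevelled to the cytoskeleton, 1 at the corepressor gene Tle1 (48.8 points, 8 of 8 cytosines DMCs) and 1 at Sox17 (31.4 points). Losses included Daam2, the paralog of Daam1, at -39.5 points, the casein kinase gene Csnk1g2 at -30.3 points 997 bp from its TSS, and 2 regions of the planar cell polarity gene Prickle1 at -32.8 and -30.7 points. The largest, at -67.8 points with 14 of 14 cytosines DMCs, was listed for the kinase gene Mapk8 but lay in a coding exon of Arhgap22. By group, 8 of 10 regions were losses for further transducers and destruction complex genes, 3 of 4 for ligand release and secreted modulators, 7 of 8 for planar cell polarity and 13 of 16 for nuclear cofactors of beta-catenin. Among liver targets of the pathway, the 8 regions were losses except for a gain at Tbx3 (25.4 points, 18 of 41 cytosines DMCs). The 3 losses at Oat, an enzyme gene of pericentral hepatocytes, were -27.6, -26.2 and -23.0 points, all more than 100 kb from the TSS.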

How the data were processed

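RRBS libraries of 3 liver tumors and 3 normal livers were compared. The authors trimmed reads with Trim Galore, aligned read pairs to mm10 with Bismark, counted C and T reads per CpG cytosine and strand with methylKit, built regions with eDMR, and used bedtools for TSS windows. The submitters' processing notes give version 2.25.0 of bedtools, and no other version was given in the sources used here. The value in the authors' deposited table is a signed score, the mean difference in percent methylation per region, tumor minus normal. All 14176 regions had at least 20.0 points, 3 cytosines and 1 DMC.

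Deposited starts were counted from 0 and 1 was added, after which all starts and ends lay in a CpG of GRCm38 (mm10). Regions were placed with the RefSeq annotation of that assembly, in Python 3.11.15 with pandas 2.3.3 and pysam 0.24.0, and the scripts were tested on simulated data. Distances are from the listed TSS to the near end of a region, along the strand of the gene, unless the gene start is named. Genes were named if they had a DMR, 3 or more regions, the largest difference of their role or a region within 2 kb of a TSS, and the rest were added after their values were seen. Members, roles and gene lists were chosen with earlier results of these data known. No set test was run.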

Additional observations from a re-analysis of the deposited data

How the results depend on the processing

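The majority of gains among DMRs of Wnt pathway genes (9 hyper-DMRs, 7 hypo-DMRs) depended on the settings. Hypo-DMRs numbered 19 at a minimum of 25 points, 1 at 40 points, 3 with at least 5 and 0 with at least 10 CpG cytosines, 11 when regions were assigned to the gene they lay in, and 4 without regions over 50% repeat-masked. Hyper-DMRs numbered 3 at 40 points and 3 with at least 10 cytosines, where the hypomethylated share was 0%, beside 47.7% of all DMRs with that many. The median difference, -23.3 points, was -21.5 with at least 5 cytosines and turned to 24.1 with at least 10. That last median rests on few regions, and the median of all regions was not taken under the same filter. Losses were the majority at 25 points and by gene body (55%), and stood at 50% when at least 3 CpG dinucleotides were required. In the settings on size, cytosines, DMCs, dinucleotides, repeats and gene body, the share of losses was below that of all DMRs under the same setting. These settings overlap in their regions and are not independent checks. For the setting on the nearest start, given below, the share of all DMRs was not computed. The settings on dinucleotides and repeats were chosen after seeing the data. By nearest start of any annotated gene, 7 of the 16 DMRs kept the listed gene, 5 of the 7 hypo-DMRs and 2 of the 9 hyper-DMRs, so that losses were the majority there too. No replicate could be left out, and no paired analysis was possible because the table holds no value per animal.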

Other observations

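Assignment to the nearest TSS missed regions that lay inside genes of the pathway. A further 11 regions, in 10 such genes, were listed for other genes, and 8 of them were losses and 3 gains. Of the 5 that were DMRs, 1 was a gain, at 44.6 points in a coding exon of Tcf7l1, a Tcf factor, with 15 of 15 cytosines DMCs. The others were losses, at -34.8 points in a coding exon of the co-receptor gene Lrp6, at -33.1 points across the end of a non-coding exon of Ror1, at -32.6 points in an intron of the Dkk receptor gene Kremen1 and at -31.5 points in an exon of Wnt7b outside its coding sequence. In Ror1 this loss stands against the gains of 33.9 and 27.7 points further toward the start of the gene. Lrp5 had a further gain of 26.8 points in a coding exon, so that both of its regions were gains.

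By symbol, 70 protein-coding genes of the annotation matched the rule, and 34 of them were listed for at least 1 region (48.6%, beside 24.4% of all protein-coding genes). The 36 genes with none included Ctnnb1, Axin1, Rnf43, Znrf3, Lgr4 and Lgr5. Of the 36, Tcf7l1, Lrp6 and Kremen1 held regions listed for other genes, as did Wnt9b, in which a region listed for Wnt3 lay. For the others, sites that differed by less than 20 points cannot be told apart from sites not measured. Only regions past the minimum were tabulated.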
